A study of Mus musculus with 4 samples.

Results

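The genes described here are the 7 inhibitors of cyclin-dependent kinases (CDKs) and the 3 D-type cyclins, 10 of the 25814 genes listed for each library. They were taken by name: Cdkn2a, Cdkn2b, Cdkn2c and Cdkn2d of the INK4 family, Cdkn1a, Cdkn1b and Cdkn1c of the CIP/KIP family, and Ccnd1, Ccnd2 and Ccnd3. RNA was sequenced from keratinocytes (KCs), the main cells of the epidermis, which were prepared from the tails of adult 129/sv mice and grown untreated in serum-free medium with 0.06 mM calcium. By their labels, 2 libraries are WT and 2 are Nfat5-/-, that is, from mice with a disrupted gene for the transcription factor NFAT5. WT mice were siblings of the Nfat5-/- mice, and the tails of both genotypes travelled overnight on ice before KCs were prepared. The labels give neither the time in culture nor a batch or date for any library, and do not say which library came from which sibling, so the p-values measure the spread between these libraries, which may be technical.

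The D-type cyclins bind the kinases CDK4 and CDK6, and the active complexes phosphorylate the RB protein, which frees E2F factors to transcribe genes for DNA synthesis. INK4 proteins bind CDK4 and CDK6 and keep cyclin D off them, whereas CIP/KIP proteins act on a wider range of complexes, most of all CDK2 with cyclin E or A. In stratified epithelia basal KCs divide and leave the cycle as they move up and differentiate, and p16INK4a accumulates as KCs age in culture.

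The depth was 16219445 to 23494436 gene reads per library. A level of 3 reads, the floor used here, corresponded to 0.128 to 0.185 CPM (reads scaled to the total of the library), and like all intervals below it covers counting error only. The level of Nfat5 itself did not separate the labels. It was 1.67 and 3.0 RPKM in WT, against 2.02 and 2.78 RPKM in those labelled Nfat5-/- (log2 fold change 0.09, SE 0.26, edgeR adjusted p 0.913), where RPKM are reads corrected for the exon length of a gene and the number of reads mapped. Counts per gene do not show which exons were read, and every direction below therefore rests on the labels. KC markers (Krt5, Krt14, Trp63, Itga6, Itgb4 and Dsg3) had a summed level of 11002 to 12748 RPKM, most of it Krt5 and Krt14. Of the 6, 0 passed the edgeR test, 2 had a higher and 4 a lower value. Itga6, named after its value was seen, had 159.7 and 135.0 RPKM in WT, against 106.8 and 117.5 RPKM in those labelled Nfat5-/- (log2 fold change -0.42, SE 0.13, edgeR adjusted p 0.206). It passed with edgeR without a filter on low counts (adjusted p 0.00771), a fit whose limit is given with Cdkn1a.

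Cdkn2a was the only member that passed the edgeR test, and its locus is shown first because its reads cannot be assigned to a single protein. The gene (ENSMUSG00000044303, chromosome 4, 89274471 to 89294653, minus strand, GRCm38) is listed with 2 transcripts, which start at separate first exons and share the next. The p16INK4a mRNA, which encodes the inhibitor of CDK4 and CDK6, starts with an exon at 89281986 to 89282192. The p19ARF mRNA starts with an exon at 89294334 to 89294653 and encodes a protein that is read in another frame and restrains MDM2, the ubiquitin ligase of p53. Both enter exon 2 at 89276645 to 89276985. In GENCODE M21 the transcripts share 575 of 1172 exon bases (49.1%), while 277 bases belong to the p16INK4a mRNA alone and 320 to the p19ARF mRNA alone. The mRNA around the first junction is given for each, with the last 30 bases of exon 1 in lower case and the first 30 bases of exon 2 in capitals.
p16INK4a mRNA: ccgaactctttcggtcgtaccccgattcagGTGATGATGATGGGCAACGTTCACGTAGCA
p19ARF mRNA: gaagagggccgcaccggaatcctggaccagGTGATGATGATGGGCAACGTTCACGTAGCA
The capitals are identical in both. A read in the lower-case part would tell the transcripts apart and a read in the capitals would not, and the deposited counts add both kinds into a single value per gene.

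The upstream sequences of the p16INK4a, p19ARF and Cdkn2b starts are given because these 3 starts lie close together, with 11.6 kb between the ends of Cdkn2a and Cdkn2b. RefSeq promoters (GRCm38.p6) were matched for 7 of the 10 members, with 11 starts; Cdkn1c, Ccnd1 and Ccnd2 were not matched. The bases upstream of the start are written on the minus strand, 5′ to 3′, with matches to the GC box GGGCGG on either strand in capitals; for p19ARF the 34 bases that lie in the first exon of GENCODE M21 are left out. The sequence of p16INK4a covers chr4:89282193-89282442, that of p19ARF chr4:89294654-89294869 and that of Cdkn2b chr4:89311033-89311282.
Cdkn2a, p16INK4a start: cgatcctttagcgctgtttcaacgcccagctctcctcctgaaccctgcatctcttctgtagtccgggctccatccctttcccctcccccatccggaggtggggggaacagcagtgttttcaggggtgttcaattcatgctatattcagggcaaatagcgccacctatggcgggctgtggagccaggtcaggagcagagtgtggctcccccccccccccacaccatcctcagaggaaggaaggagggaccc
Cdkn2a, p19ARF start: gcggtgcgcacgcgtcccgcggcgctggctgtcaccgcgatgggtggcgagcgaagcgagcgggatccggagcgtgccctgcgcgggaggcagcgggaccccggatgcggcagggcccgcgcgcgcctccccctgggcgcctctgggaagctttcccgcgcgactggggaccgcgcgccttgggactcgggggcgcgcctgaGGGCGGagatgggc
Cdkn2b start: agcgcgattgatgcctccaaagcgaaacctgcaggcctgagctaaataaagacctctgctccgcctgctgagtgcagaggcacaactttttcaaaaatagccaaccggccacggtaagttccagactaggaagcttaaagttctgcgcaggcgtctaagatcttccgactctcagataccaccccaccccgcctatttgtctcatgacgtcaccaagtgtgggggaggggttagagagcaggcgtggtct
The stretch printed for p19ARF holds 1 GC box and those of p16INK4a and Cdkn2b hold 0. The core TGGAAA, bound by NFAT proteins, was searched on both strands in the 250 bases upstream of each of the 11 starts and was found in 0 of them. Among the 32851 RefSeq promoters of mouse genes, 18.6% hold TGGAAA and 32.7% hold GGGCGG in a window of that length. These are matches of letters, and the absence of TGGAAA from these windows says nothing on binding by NFAT5 there or elsewhere.

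Cdkn2a rose in the libraries labelled Nfat5-/-. Its level was 11.8 and 14.6 RPKM in WT, against 53.8 and 72.0 RPKM in those labelled Nfat5-/-, or 13.2 ± 1.99 against 62.9 ± 12.9 RPKM (SD, n = 2 each). Both libraries labelled Nfat5-/- lay far above both WT libraries, and the means differed 4.78-fold. The values rest on 229 and 380 gene reads in WT, against on 1525 and 1618 in those labelled Nfat5-/-, all placed at a single site. The log2 fold change was 2.27 (SE 0.19, edgeR adjusted p 0.00579), seventh by p-value and rank 77 by size of rise among the 12614 genes tested. Of these genes, 1.27% passed the threshold of 0.05, 0.943% as higher and 0.325% as lower. Cdkn2a was 1 of 10 members that did so, and it stayed past the threshold when any library was left out (adjusted p at most 0.0308). In those fits 1 group has a single library, which is assumed to vary like the other group. In bulk RNA, a larger share of cells with the transcript and more transcript per cell cannot be told apart.

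**Figure D1:**
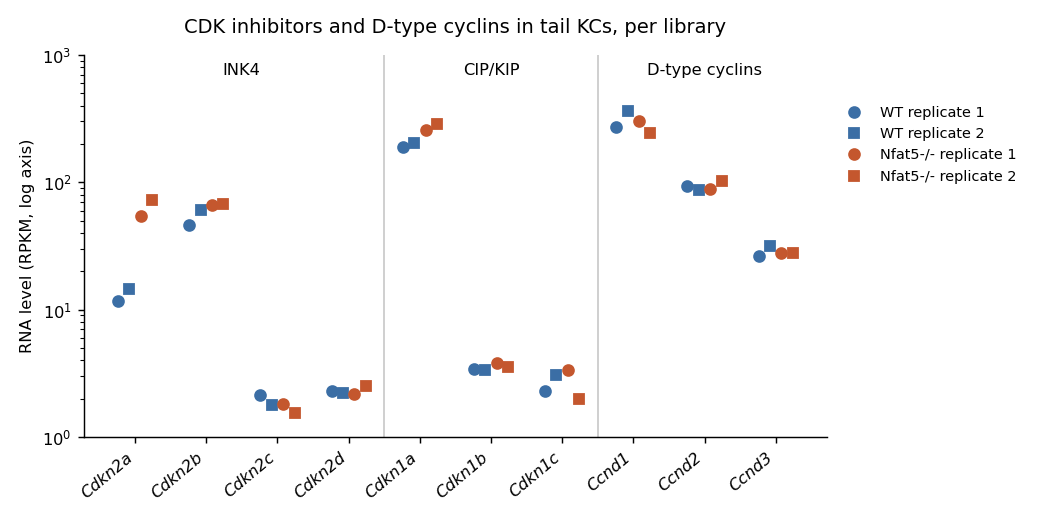
RNA level of each member in each library, in RPKM on a log axis; blue, WT; orange, libraries labelled Nfat5-/-; circles, replicate 1; squares, replicate 2. For Cdkn2a the orange points (53.8 and 72.0 RPKM) stand clear of the blue (11.8 and 14.6 RPKM), while for the other members the groups lie close together or overlap.

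The other INK4 genes did not pass the test. Cdkn2b, which encodes p15INK4b and lies next to Cdkn2a (ENSMUSG00000073802, chromosome 4, 89306289 to 89311032), had 46.4 and 60.5 RPKM in WT, against 65.7 and 67.6 RPKM in those labelled Nfat5-/-. The groups did not overlap, but the spread within WT was wider than the gap between the groups, and the log2 fold change was 0.34 (SE 0.14, edgeR p 0.0443, adjusted p 0.329). It was 0.17 without WT replicate 1 and 0.54 (adjusted p 0.0699) without WT replicate 2. Cdkn2c, encoding p18INK4c (chromosome 4, 109660876 to 109667189), had 2.15 and 1.78 RPKM in WT, against 1.81 and 1.54 RPKM in those labelled Nfat5-/- (log2 fold change -0.23, SE 0.22, edgeR adjusted p 0.684; -0.066 without WT replicate 1 and -0.38 without WT replicate 2). Its groups overlapped, and its values rest on 83 to 123 reads. Cdkn2d, encoding p19INK4d (chromosome 9, 21288410 to 21291407), had 2.29 and 2.24 RPKM in WT, against 2.16 and 2.50 RPKM in those labelled Nfat5-/- (log2 fold change 0.07, SE 0.23, edgeR adjusted p 0.929), with the WT values inside the range of the others.

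The makeup of the INK4 transcripts was compared within each library, where no scaling between libraries enters. Cdkn2a made up 18.8% and 18.4% of the summed INK4 RPKM in WT, against 43.6% and 50.1% in those labelled Nfat5-/-. Cdkn2b made up 74.1% and 76.5% in WT against 53.2% and 47.1%. The ratio of Cdkn2a to its neighbour Cdkn2b was 0.253 and 0.241 in WT, against 0.819 and 1.07 in those labelled Nfat5-/-. The pair thus went from a clear excess of Cdkn2b to near-equal RPKM. The RPKM of Cdkn2a are divided by all 1172 exon bases, although its transcripts are 852 and 895 bases long. They therefore understate its level per transcript length, and its shares and ratios to other genes, in every library alike. On the log2 scale the ratio differed by 1.92. The exact two-sided permutation test gave p = 0.333, which is the smallest value that 2 against 2 libraries allow, so this ratio cannot pass a threshold of 0.05. The ratio to Cdkn2c (5.47 and 8.17 in WT, 29.8 and 46.8 in the libraries labelled Nfat5-/-) and the ratio to Cdkn2d (5.13 and 6.51 in WT, 24.9 and 28.9) were kept apart by genotype as well, with the same exact p of 0.333. With the sum of all inhibitors over all D-type cyclins, these make 4 ratios, each with a Benjamini-Hochberg adjusted p of 0.333.

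Of the CIP/KIP genes, Cdkn1a was by far the most abundant and had the largest difference. Cdkn1a encodes p21, a target of p53 that inhibits CDK2 complexes (ENSMUSG00000023067, chromosome 17, 29090979 to 29100722). Its level was 188.7 and 204.0 RPKM in WT, against 257.2 and 288.7 RPKM in those labelled Nfat5-/-. The groups did not overlap and the gap was wider than the spread within either, with means 1.39-fold apart. The log2 fold change was 0.50 (SE 0.11, edgeR p 0.00272, adjusted p 0.0968), which missed the threshold. The call depended on the procedure, since the adjusted p was 0.00508 with DESeq2 and 0.00111 with edgeR without a filter on low counts, which call 3.28% and 6.30% of the genes they tested. Without the filter the edgeR adjusted p of Cdkn2a fell from 0.00579 to 1.39e-53, while its SE moved only from 0.19 to 0.14. That fit takes the spread between libraries as nearly known, so its p-values, here and below, are too small for 2 libraries a group.

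The remaining CIP/KIP genes were low. Cdkn1b, encoding p27, which holds CDK2 inactive in resting cells (chromosome 6, 134920401 to 134925513), had 3.42 and 3.37 RPKM in WT, against 3.81 and 3.56 RPKM in those labelled Nfat5-/-. The groups were just apart, and the log2 fold change of 0.14 (SE 0.13; adjusted p 0.698, edgeR) was about the size of its error. Cdkn1c, the imprinted gene of p57 (chromosome 7, 143458339 to 143461050), had 2.31 and 3.06 RPKM in WT, against 3.38 and 1.99 RPKM in those labelled Nfat5-/-, which held the highest and the lowest value of the 4 (log2 fold change 0.02, SE 0.29, edgeR adjusted p 0.988). Cdkn1a made up 73.4% and 70.5% of the summed RPKM of all 7 inhibitors in WT, against 66.3% and 65.9% in those labelled Nfat5-/-.

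None of the D-type cyclins passed the test. Ccnd1, the cyclin induced by mitogens in KCs (ENSMUSG00000070348, chromosome 7, 144929931 to 144939925), had 270.6 and 365.3 RPKM in WT, against 301.7 and 245.1 RPKM in those labelled Nfat5-/-, with overlapping groups (log2 fold change -0.20, SE 0.16, edgeR adjusted p 0.629). Of its exon reads, 60.7% were placed at a single site and the rest were shared out by the software, and its gene overlaps Oraov1 on the other strand, which had 226 to 370 reads. Ccnd2 (chromosome 6, 127125162 to 127152193) had 94.2 and 86.7 RPKM in WT, against 88.1 and 102.2 RPKM in those labelled Nfat5-/- (log2 fold change 0.09, SE 0.12, edgeR adjusted p 0.769). Ccnd3 (chromosome 17, 47505051 to 47599691) had 26.5 and 31.7 RPKM in WT, against 27.9 and 27.8 RPKM in those labelled Nfat5-/- (log2 fold change -0.05, SE 0.12, edgeR adjusted p 0.890). The groups overlapped for both, and Ccnd3 overlaps Bysl on the other strand, with 1299 to 1957 reads. Whether strand was used in counting is not stated, so reads of such pairs cannot be told apart.

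Over the members together, all 10 passed the filter on low counts, 1 passed the adjusted threshold, and 3 (Cdkn2a, Cdkn2b and Cdkn1a) had an unadjusted p under 0.05, against 14.6% of all genes tested. The groups did not overlap in 4 of 10 members (Cdkn2a, Cdkn2b, Cdkn1a and Cdkn1b), all higher in the libraries labelled Nfat5-/-, against 46.5% of all genes tested, so the share of members kept apart was near the background. The median log2 fold change was 0.20 for the INK4 genes, 0.14 for the CIP/KIP genes and -0.05 for the D-type cyclins, beside -0.01 for all genes tested.

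The summed RPKM of the 7 inhibitors over that of the 3 cyclins was 0.657 and 0.599 in WT, against 0.929 and 1.17 in those labelled Nfat5-/- (log2 difference 0.73, exact permutation p = 0.333, the smallest possible). Cdkn1a made up 65.9% to 73.4% of the inhibitor sum and Ccnd1 65.4% to 75.5% of the cyclin sum, and neither passed the test. Ccnd1 includes shared reads, and with uniquely placed exon reads alone the log2 difference of this ratio was 0.68. The order of the members by mean RPKM differed at a few places. In WT it ran Ccnd1, Cdkn1a, Ccnd2, Cdkn2b, Ccnd3, Cdkn2a, Cdkn1b, Cdkn1c, Cdkn2d and Cdkn2c, and no neighbours in this order overlapped between libraries. In the libraries labelled Nfat5-/- Cdkn2a stood above Ccnd3 and next to Cdkn2b, with which it overlapped, and Cdkn1a overlapped with Ccnd1 at the top. There Cdkn1c and Cdkn2d overlapped too.

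**Figure D2:**
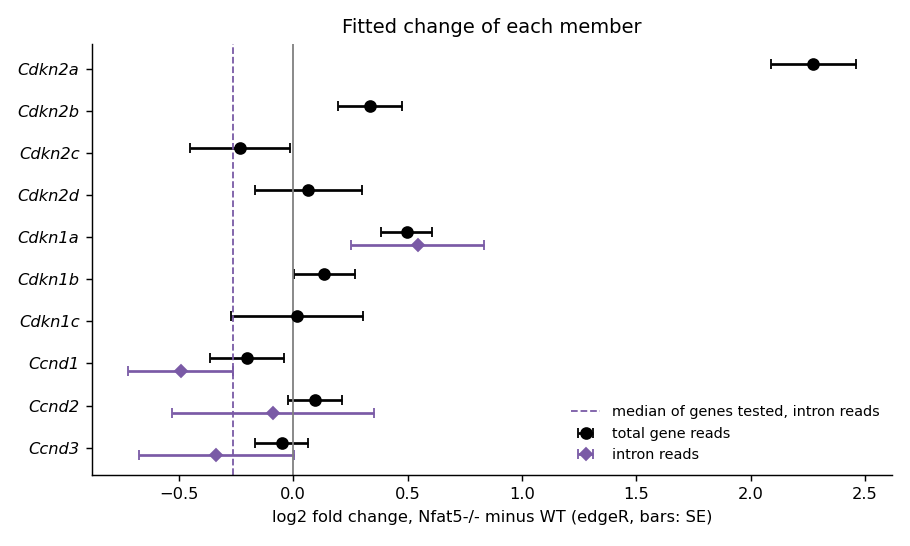
Log2 fold change of each member, libraries labelled Nfat5-/- minus WT, from edgeR on total gene reads (black circles) and, for the 4 members tested there, on intron reads (purple diamonds); bars are SE and the dashed line is the median intron change of all genes tested. Cdkn2a stands at 2.27, Cdkn1a at 0.50 in gene reads and 0.54 in intron reads, and Ccnd1 at -0.20 in gene reads and -0.49 in intron reads, where its bar ends at the dashed line at -0.26. The lowest value in gene reads is that of Cdkn2c, at -0.23.

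Intron reads, which come mostly from RNA that is not yet spliced, were few in these libraries of polyadenylated RNA (1.79% to 1.97% of gene reads). Cdkn2a had 0 and 2 intron reads in WT, against 5 and 6 in those labelled Nfat5-/-. The 0 of 229 gene reads in WT replicate 1 allows an intron share of up to 1.31%, and the highest share seen was 0.526% (2 of 380 reads, Wilson 95% interval 0.144% to 1.90%). The first intron of the p19ARF mRNA holds the first exon of the p16INK4a mRNA and the bases upstream of it, so these reads do not tell the transcripts apart either. The filter on intron reads left out 6 members: Cdkn2a, Cdkn2b (5, 4, 3 and 6 reads), Cdkn2c (8, 6, 6 and 4), Cdkn2d (0, 0, 1 and 0), Cdkn1b (0 in each) and Cdkn1c (0, 4, 2 and 2), each in the order WT replicates 1 and 2, then the libraries labelled Nfat5-/- 1 and 2. With a looser filter of 10 intron reads over all libraries, Cdkn2a had a log2 fold change of 2.20 in intron reads (SE 0.97, edgeR p 0.0379, adjusted p 0.350). That value lay beside its change in gene reads but had a wide error.

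The 4 members tested in introns did not pass. Of 5734 genes tested there, 2 (0.0349%) passed, and the median log2 fold change was -0.26, so changes are read against that shift. An unadjusted p under 0.05 was seen for 0 of the 4 members, against 17.5% of genes. Cdkn1a had 31 and 26 intron reads in WT, against 51 and 42 in those labelled Nfat5-/-, with groups apart and a log2 fold change of 0.54 (SE 0.29; adjusted p 0.355, edgeR). It was 0.22 without WT replicate 2, 0.89 without WT replicate 1 and 0.82 with TMM on intron reads, with no call in any. Ccnd1 had 87 and 159 reads against 108 and 82 (-0.49, SE 0.23, adjusted p 0.294). Ccnd2 had 13 and 10 against 12 and 12 (-0.09, SE 0.44, adjusted p 0.95), and Ccnd3 had 21 and 25 against 18 and 22 (-0.34, SE 0.34, adjusted p 0.650). With 1 library left out these values ranged from -0.69 to -0.24 for Ccnd1 (without WT replicates 1 and 2), from -0.48 to 0.32 for Ccnd2 (without WT replicates 2 and 1) and from -0.67 to -0.013 for Ccnd3 (without Nfat5-/- replicates 2 and 1). With TMM on intron reads they were -0.22, 0.19 and -0.062. When the intron change was tested against the exon change of the same gene, 2.47% of 5383 genes passed, 132 of 133 with the lower change in introns. With scaling within each region 2 passed, both with the lower change in introns. The 4 members had adjusted p-values from 0.463 (Ccnd1) to 0.931 (Cdkn1a), with 0 unadjusted p under 0.05 against 19.6% of genes, so no difference between their intron and exon changes was detectable at this depth.

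The share of exon reads that crossed an exon junction was compared for each gene, a comparison chosen after the values had been seen. For Cdkn2a it was 15.7% (36 of 229 reads, Wilson 95% interval 11.6% to 21.0%) and 16.1% (61 of 378, 12.8% to 20.2%) in WT. It was 21.5% (327 of 1520, 19.5% to 23.6%) and 21.96% (354 of 1612, 20.01% to 24.05%) in the libraries labelled Nfat5-/-. The groups did not overlap, as in 36.4% of the genes tested, while the intervals of WT and of those labelled Nfat5-/- overlapped. In the edgeR test of junction against other exon reads the log2 difference was 0.54 (SE 0.16, p 0.0016, adjusted p 0.274), which missed the threshold that 0.0504% of 9924 genes passed. If reads of 59 bases started evenly along the mRNA, 14.6% of them would cross a junction in the p16INK4a mRNA and 13.9% in the p19ARF mRNA. The other 7 members tested had log2 differences from -0.30 (Cdkn1c) to 0.14 (Cdkn2b), with adjusted p-values of 0.681 or more. An unadjusted p under 0.05 was seen for 2 of the 8 members tested (Cdkn2a and, at 0.0498, Cdkn1a) and for 7.34% of genes. The junction share of all exon reads was 24.2% and 24.03% in WT, against 25.0% and 24.6% in those labelled Nfat5-/-.

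**Figure D3:**
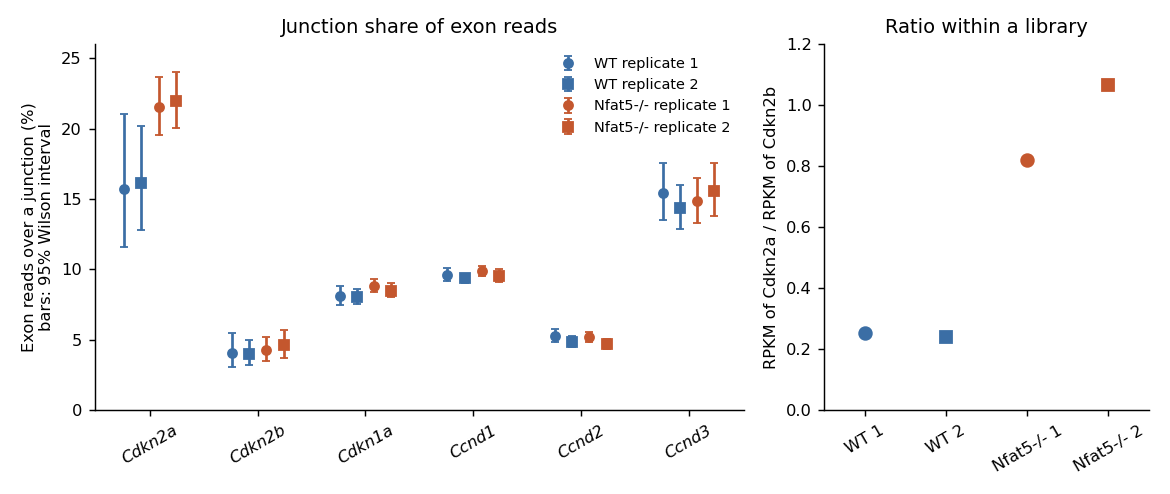
Left, share of exon reads over an exon junction for 6 members in each library, in percent with 95% Wilson intervals; right, ratio of Cdkn2a to Cdkn2b RPKM in each library; blue, WT; orange, libraries labelled Nfat5-/-. The Cdkn2a share was 15.7% and 16.1% in WT, against 21.5% and 21.96% in those labelled Nfat5-/-, and the ratio was 0.253 and 0.241 against 0.819 and 1.07.

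The tested genes nearest to Cdkn2a and Cdkn2b are the same on each side. Mtap, the gene of a purine salvage enzyme 93.4 kb from Cdkn2a on the side of its 3′ end, had 30.6 and 39.6 RPKM in WT, against 43.6 and 45.4 RPKM in those labelled Nfat5-/- (log2 fold change 0.36, SE 0.14, edgeR adjusted p 0.299; 0.20 without WT replicate 1 and 0.56 without WT replicate 2). Its groups were apart, as for Cdkn2b, and it was not called. Elavl2, the gene of an RNA-binding protein of neurons 1956 kb beyond the other end of Cdkn2a, was at 0.0681 and 0.136 RPKM in WT, against 0.509 and 0.771 RPKM in those labelled Nfat5-/-. It passed the threshold at this low level (6 and 17 against 67 and 82 reads, log2 fold change 2.60, SE 0.44, edgeR adjusted p 0.0438). Its call was lost without either of the libraries labelled Nfat5-/- (adjusted p 0.113 without replicate 1 and 0.319 without replicate 2) and with limma-trend (0.105 and 0.0931). The next genes outward, Gm13285 and Gm12666, had at most 18 reads in a library and overlapping groups (log2 fold change -0.05 and 0.04). None of the exon reads of Gm13285 was uniquely placed.

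The genes whose pattern over the 4 libraries was nearest to that of Cdkn2a were Dio3, Sncg, Mcam, Dsg1b and Cnn1, in this order, among 9262 tested genes whose higher group averaged 2 RPKM or more. The measure was the Euclidean distance of log2 CPM centred on each gene's mean, from 0.213 (Dio3) to 0.363 (Cnn1). Dio3, a deiodinase that inactivates thyroid hormone, had 0.533 and 0.801 RPKM in WT, against 2.62 and 3.33 RPKM in those labelled Nfat5-/-. Sncg, the gene of gamma-synuclein, had 10.3 and 12.6 against 56.1 and 71.3 RPKM. Mcam is the gene of an adhesion molecule of the immunoglobulin family, Dsg1b of a desmosomal cadherin of the upper epidermis and Cnn1 of calponin, an actin-binding protein of smooth muscle. All 5 were past the threshold (edgeR adjusted p 0.00456 to 0.0440). Without Nfat5-/- replicate 2 the call was lost for Dio3 (adjusted p 0.207), Mcam (0.0618), Dsg1b (0.0881) and Cnn1 (0.275), and without Nfat5-/- replicate 1 for Dio3 (0.0976) and Cnn1 (0.0668), while Sncg kept it in both. Likeness over 4 libraries in 2 groups is mostly the difference between the groups.

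Markers of smooth muscle moved in the same direction as Cdkn2a. Of the list Acta2, Tagln, Myh11, Cnn1 and Des, 4 were tested and each was called higher under the Nfat5-/- label (edgeR adjusted p 0.00768 to 0.0440). Their summed level was 151 to 184 RPKM in WT, against 518 to 819 RPKM in those labelled Nfat5-/-, most of it Acta2. The defining Myh11 was at 0.00913 and 0 RPKM against 0.120 and 0.294 RPKM, and Des at 0.0199 RPKM in WT replicate 1 and 0 in the other libraries. Myh11 missed the threshold with exon reads (edgeR adjusted p 0.0516) and with either WT library left out. With 1 or the other of the libraries labelled Nfat5-/- left out, and with limma-trend on log2(RPKM + 1), 2 genes of the list (Acta2 and Tagln) passed. Among the 5 tested of 7 melanocyte markers, 1 (Tyrp1, log2 fold change -2.04) was lower, a call lost without Nfat5-/- replicate 1 (adjusted p 0.0939) or replicate 2 (0.0800), and 4 of the 5 had a lower value (median log2 fold change -1.30). Pmel (-1.30, edgeR adjusted p 0.0772) and Dct (-1.65, 0.0923), named after their values were seen, missed the threshold. Pmel passed with DESeq2 (0.0384), with limma-trend on log2(RPKM + 1) (0.0416), without WT replicate 2 (0.0422) and without the filter on low counts (6.99e-05), and Dct in the last of these (6.89e-05). The summed level of the list was 7.34 to 7.76 RPKM in WT, against 2.31 to 3.26 RPKM in those labelled Nfat5-/-. Fibroblast markers (3 of 7 tested, summed level 0.514 to 0.598 against 0.850 to 1.83 RPKM), immune markers (1 of 7 tested, 0.200 to 0.996 against 0.356 to 0.511 RPKM) and endothelial markers (2 of 4 tested, 0.701 to 0.777 against 0.555 to 0.687 RPKM) were low, and 0 of them passed. All 3 fibroblast markers tested had a higher value under the Nfat5-/- label, with a median log2 fold change of 0.78. The highest was Thy1, named after its value was seen, with 2 and 5 reads in WT and 19 and 29 under the Nfat5-/- label (2.65, SE 0.61, edgeR adjusted p 0.102), which passed without the filter on low counts (0.000608). Col1a1 had 41 and 34 reads in WT and 44 and 91 under the Nfat5-/- label (0.74, SE 0.49, edgeR adjusted p 0.547), Pdgfra had 14 to 38 reads, and Col1a2, Col3a1, Lum and Dcn had at most 6 reads in a library. The part of other cells in the value of Cdkn2a was not tested.

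The genes on which the members act were described by lists. Of the 15 genes of the CDK4/6, RB and E2F step, all were tested and 0 passed; 12 had a lower and 3 a higher value, with a median log2 fold change of -0.12, and 3 had an unadjusted p under 0.05, a share near the 14.6% of all genes tested. Of all genes tested, 51.95% had a lower value. The kinases themselves were level, with log2 fold changes of -0.01 for Cdk4 (SE 0.12) and -0.01 for Cdk6 (SE 0.12). Rb1, the gene of the retinoblastoma protein, had -0.12 (SE 0.11, edgeR adjusted p 0.678, 53.1% of its reads uniquely placed). E2f1, which drives entry into S phase, had 10.4 and 10.6 RPKM in WT, against 8.06 and 6.84 RPKM in those labelled Nfat5-/-, with groups apart. Its log2 fold change was -0.48 (SE 0.12, edgeR adjusted p 0.132), and it passed only without the filter on low counts (adjusted p 0.0235). The lowest value was that of Tfdp2, a partner of E2F (-0.50, SE 0.18; -0.27 without WT replicate 1), and the highest that of E2f2 (0.34, SE 0.31; 0.18 without WT replicate 2), which had 28 to 48 reads.

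Of the 14 cyclins, CDKs and CDC25 phosphatases of later phases, 13 were tested and 0 passed. The values were lower for 11 and higher for 2, with a median log2 fold change of -0.27, and 4 had an unadjusted p under 0.05. Over all genes tested these shares were 51.95% lower and 14.6% under 0.05, with a median of -0.01. The lowest was Ccne2, encoding cyclin E2, with 2.44 and 2.81 RPKM in WT, against 1.71 and 1.46 RPKM in those labelled Nfat5-/- (log2 fold change -0.71, SE 0.19, edgeR adjusted p 0.152, 48.0% of its reads uniquely placed). The highest was Mnat1, a subunit of the CDK-activating kinase (0.08, SE 0.11). The summed level of this list was 164.0 and 164.1 RPKM in WT, 156.9 RPKM in the library labelled Nfat5-/- replicate 1 and 117.3 RPKM in replicate 2, so 1 of the libraries labelled Nfat5-/- was much lower than the other.

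The arm of p19ARF was represented by 5 genes, all tested, of which 0 passed (median log2 fold change -0.04, 2 higher and 3 lower). Mdm2, whose protein is the direct partner of p19ARF and whose gene is a target of p53, had 25.6 and 32.3 RPKM in WT, against 42.1 and 42.2 RPKM in those labelled Nfat5-/-. The groups were apart, and the log2 fold change of 0.56 (SE 0.13; adjusted p 0.103, edgeR) missed the threshold. As for Cdkn1a, the call came with DESeq2 (adjusted p 0.0112) and without the filter on low counts (0.000422), and here also without WT replicate 2 (0.0196). Trp53, the gene of p53, was at -0.04 (SE 0.10), and Myc, which can induce Arf, had the lowest value of the list at -0.14 (SE 0.17).

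The INK4 and ARF genes are silenced by Polycomb proteins in dividing cells, and 19 genes of these complexes and of demethylases that oppose them were all tested. Of these, 0 passed, 11 were higher and 8 lower, with a median log2 fold change of 0.02. Bmi1, the classical repressor of the locus, had 5.56 and 6.06 RPKM in WT, against 6.16 and 5.33 RPKM in those labelled Nfat5-/- (log2 fold change 0.0032, SE 0.13). Cbx7 was at -0.02 (SE 0.30) and Ezh2, the methyltransferase, at -0.18 (SE 0.12, edgeR adjusted p 0.540). With 1 library left out, the value of Ezh2 ranged from -0.31 to -0.068. The lowest value was that of Phc1 (-0.33, SE 0.13) and the highest that of the demethylase Kdm6a (0.38, SE 0.26, edgeR adjusted p 0.559), which had 1.98 and 3.77 RPKM in WT. Its value rested on WT replicate 1: the log2 fold change was 0.019 (adjusted p 0.986) without it and 0.91 (adjusted p 0.0261) without WT replicate 2.

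Of 13 factors known to act at the locus (Id, Ets and T-box genes among them), 12 were tested and 0 passed, with 7 higher, 5 lower and a median log2 fold change of 0.13. An unadjusted p under 0.05 was seen for 5 of them, against 14.6% of all genes tested. Id2, an inhibitor of basic helix-loop-helix factors, had the highest value at a low level, with 8 and 15 reads in WT, against 26 and 46 in those labelled Nfat5-/- (log2 fold change 1.56, SE 0.51, edgeR adjusted p 0.235; 2.06 without Nfat5-/- replicate 1 and 0.88 without replicate 2), and Tbx3, a repressor of Arf, the lowest (-0.22, SE 0.28). Of 15 genes that control the turnover of the member proteins, all were tested and 0 passed (8 higher, 7 lower, median 0.03). Skp2, which marks p27 for degradation, was at -0.12 (SE 0.21), Dtl, of the ligase that degrades p21, was the lowest (-0.57, SE 0.22, edgeR adjusted p 0.299; -0.97 without Nfat5-/- replicate 1 and -0.27 without replicate 2), and Usp2, which stabilizes cyclin D1 and MDM2, was the highest (0.81, SE 0.30, adjusted p 0.293, 20.5% of its reads uniquely placed; 0.47 without Nfat5-/- replicate 2). Without the filter on low counts, under which 6.30% of genes passed, 8 genes of the 6 lists passed. Besides E2f1 and Mdm2, these were Rbl1 (edgeR adjusted p 0.0372), Ccne2 (0.0305), Cdc25b (0.0351), Id2 (0.01), Hmga2 (3.22e-06) and Dtl (0.00834). Of these, Rbl1 (log2 fold change -0.45) and Cdc25b (-0.45) were lower and Hmga2 (0.68) was higher under the Nfat5-/- label. The p-values of this fit carry the limit given with Cdkn1a. Without WT replicate 2, Cdc25b (0.0499) and Hmga2 (0.00215) passed along with Mdm2 and Kdm6a. Rbl1, Cdc25b and Hmga2 are named after their values were seen.

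**Figure D4:**
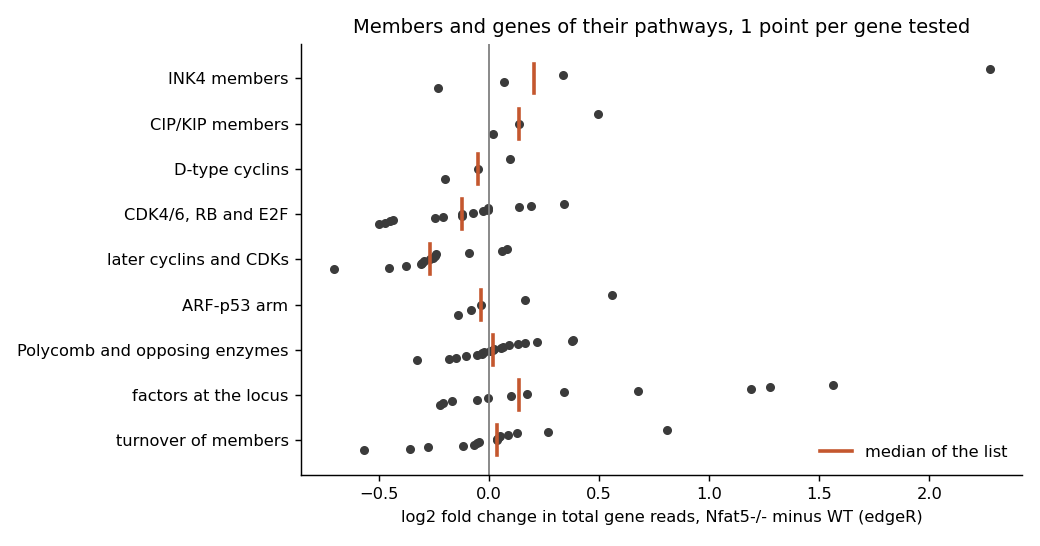
Log2 fold change in total gene reads, libraries labelled Nfat5-/- minus WT, for the members and for the genes of 6 lists of their pathways; each point is a gene tested by edgeR and each bar the median of its list. Cdkn2a, at 2.27, is the point farthest to the right, the medians lie between -0.27 (later cyclins and CDKs) and 0.20 (INK4 members), and 0 genes of the 6 pathway lists passed the threshold.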

How the data were processed

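Polyadenylated RNA of 4 libraries was measured, 2 labelled WT and 2 labelled Nfat5-/-, grouped and numbered by the sample titles. The authors trimmed the reads, aligned them to GRCm38 with the CLC Genomics Workbench 12.0 and deposited, per gene, counts of total, exon, intron, junction and uniquely placed reads that were not normalized, together with RPKM values. Members were taken by gene name. Total gene reads of all genes were tested with edgeR 4.0.16 in R 4.3.3 (filterByExpr, TMM, quasi-likelihood, genotype alone, Benjamini-Hochberg over all genes tested, threshold 0.05). Intron reads, and the interaction of intron and exon reads with library as a block, were fitted with the effective library sizes of the exon reads. Junction against other exon reads was fitted in the same way and was added after the data were seen. An SE is the log2 fold change over the square root of its F statistic. P-values are two-sided. Scripts were tested on simulated data.

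The members, pathway lists and markers were chosen with earlier results of these data known. Named are all members; of each pathway list the genes past the threshold, those with the highest and lowest log2 fold change, and Cdk4, Cdk6, Rb1, E2f1, Trp53, Mdm2, Bmi1, Cbx7, Ezh2 and Skp2; the 2 nearest tested genes on each side of Cdkn2a and Cdkn2b; and the 5 genes most like Cdkn2a (at least 2 RPKM in the higher group). Reads were 59 bases long. The libraries of a group differed by more than sampling noise (chi-square per degree of freedom 17.3 in WT and 18.4 in Nfat5-/-). Alternatives were a replicate block, other scaling and filters, DESeq2 1.42.0, limma-trend (limma 3.58.1) on log2(RPKM + 1) and log2(RPKM + 0.1) for genes with at least 0.5 RPKM in 2 libraries, exon reads, uniquely placed reads and each library left out in turn.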

Additional observations from a re-analysis of the deposited data

How the results depend on the processing

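Cdkn2a passed in all 14 alternatives, with log2 fold changes of 2.03 to 2.49. The count of genes past the threshold in gene reads (160) was 1137 without a filter and 420 with DESeq2, and ranged from 16 (without Nfat5-/- replicate 2) and 31 (without Nfat5-/- replicate 1) to 268 (without WT replicate 1) and 478 (without WT replicate 2). In gene reads, the deviations of same-numbered libraries from their group means hardly correlated (-0.0652). This does not settle whether the replicate numbers pair the libraries, and the labels do not tie a number to a mouse or a day. The replicate block lowered the SE of Cdkn2a from 0.19 to 0.12 and raised the calls in intron reads, as given below. With the replicate block 132 genes passed, Cdkn2a had an adjusted p of 0.00234, and Cdkn1c was at -0.0079. In intron reads (2 genes), 5 passed with TMM on intron reads, 5 with 10 intron reads in all, 141 with the replicate block, 22 with uniquely placed reads, and 57 to 117 with 1 library left out. For intron against exon change (133), 2 passed with TMM within each region and 1 to 78 with 1 library left out. For junction against other exon reads (5), 3 passed with TMM within each read class and 2 to 18 with 1 library left out. Signs turned for values near 0: Cdkn1c with limma-trend (-0.020 and -0.035), Bmi1 with library totals (-0.016), limma-trend (-0.015 and -0.017), exon reads (-0.0029) and uniquely placed exon reads (-0.0048), Cbx7 with these read sets (0.021 and 0.022), Rb1 with uniquely placed exon reads (0.067), Cdk6 (0.00074) and Gm13285 (0.037) with DESeq2, and Ccnd2 with intron scaling (0.19 in introns, 0.11 against exons). With 1 library left out, signs turned within these ranges: in gene reads -0.045 to 0.18 for Cdkn2d, -0.39 to 0.32 for Cdkn1c, -0.39 to 0.030 for Ccnd1, -0.033 to 0.21 for Ccnd2, -0.16 to 0.080 for Ccnd3, -0.12 to 0.098 for Cdk4, -0.11 to 0.12 for Cdk6, -0.11 to 0.044 for Trp53, -0.40 to 0.17 for Myc, -0.087 to 0.087 for Bmi1, -0.069 to 0.021 for Cbx7, -0.57 to 0.036 for Tbx3, -0.36 to 0.079 for Skp2, -0.23 to 0.53 for Nfat5, -1.45 to 0.74 for Gm13285 and -0.43 to 0.63 for Gm12666; in intron reads -0.48 to 0.32 for Ccnd2; for intron against exon change -0.32 to 0.46 for Cdkn1a, -0.49 to 0.17 for Ccnd2 and -0.60 to 0.031 for Ccnd3; and for junction against other exon reads -0.33 to 0.12 for Cdkn1b, -0.80 to 0.46 for Cdkn1c, -0.11 to 0.045 for Ccnd2 and -0.026 to 0.094 for Ccnd3. The causes were not tested. With 2 libraries a group, leaving out 1 takes the spread from the other group alone, and 1 library can decide a call, and members under 10 RPKM rest on few reads.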
